A study of Mus musculus with 18 samples.

Results

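The genes described here are the 32 genes of cholesterol synthesis, uptake and efflux: 7 of the mevalonate steps, 12 of the squalene and sterol steps, 5 of the SREBP switch, 3 of uptake and intracellular transport, 4 of efflux and LXR control and 1 of esterification. They were picked by symbol, with earlier results of these data known, and all 32 were found among the 20979 genes of the expression table. The table holds testis RNA from 18 libraries of ICR mice aged 10 weeks, in 6 groups of 3. The first group was untreated control. The AOS group received AOS at 10 mg/kg, a compound that the labels give only by this abbreviation. The HFD_STZ group had a high fat diet and STZ (streptozotocin, a toxin of pancreatic beta cells). The HFD_STZ_AOS group had the diet, STZ and AOS at 10 mg/kg. Of the remaining groups, which also had the diet and STZ, HFD_STZ_AOS_FMT received a microbiota transplant labelled AOS10mg/kg-FMT and HFD_STZ_control_FMT received a transplant labelled control-FMT. The study asked what such transplants do in testes exposed to the diet and STZ. Among the groups analysed here none had STZ without the diet or a sham transplant, so these parts of the treatment cannot be told apart. The labels do not say whether the 3 libraries of a group came from separate animals, so each p-value measures only the spread between these libraries, which may be technical.

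Cholesterol is built from acetyl-CoA. Hmgcs1 and the following mevalonate enzymes make isoprenoid units, Fdps and Fdft1 join these into squalene, Sqle and Lss close the first sterol ring system (lanosterol), and a series of demethylases, isomerases and reductases ending with Dhcr7 turns lanosterol into cholesterol. When sterols are scarce in the endoplasmic reticulum, Scap carries the transcription factors SREBP1 and SREBP2 (genes Srebf1 and Srebf2) to the Golgi, where they are cut and released to switch the synthesis genes on. When sterols are plentiful, the Insig proteins hold Scap back. In the testis, cholesterol is the precursor of testosterone in Leydig cells, a component of sperm membranes, and, in germ cells, the end of a pathway whose intermediates accumulate as meiosis-activating sterols.

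Promoter sequences are shown because some of the genes were correlated with Hmgcs1 across libraries, and because SREBP acts through short elements near the start site, usually beside a CCAAT box bound by NF-Y. RefSeq (GRCm38.p6) gave windows from 250 bases before to 50 after the start for 26 of the 32 genes (35 windows). The 5 windows below belong to Hmgcs1, to Msmo1, Insig1 and Sc5d, whose levels were correlated with that of Hmgcs1, and to Cyp51, for which no such correlation was found. Each is written 5′ to 3′ on the strand of the gene, with CCAAT on either strand (CCAAT or ATTGG) and the sterol element TCACNCCAC in capitals.
Hmgcs1, chr13:119690101-119690400, plus strand: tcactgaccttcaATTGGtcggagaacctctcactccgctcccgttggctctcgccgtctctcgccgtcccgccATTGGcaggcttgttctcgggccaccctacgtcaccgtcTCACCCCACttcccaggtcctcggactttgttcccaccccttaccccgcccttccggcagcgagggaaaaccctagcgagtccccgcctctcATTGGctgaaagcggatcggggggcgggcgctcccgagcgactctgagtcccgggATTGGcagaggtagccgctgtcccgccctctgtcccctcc
Msmo1, chr8:64733529-64733828, minus strand: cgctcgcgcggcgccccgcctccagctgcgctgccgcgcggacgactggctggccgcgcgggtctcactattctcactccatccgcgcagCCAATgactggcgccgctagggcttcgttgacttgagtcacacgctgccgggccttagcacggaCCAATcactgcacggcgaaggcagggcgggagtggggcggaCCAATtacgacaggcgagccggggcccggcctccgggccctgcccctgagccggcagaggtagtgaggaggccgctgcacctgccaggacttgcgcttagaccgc
Insig1, chr5:28071162-28071461, plus strand: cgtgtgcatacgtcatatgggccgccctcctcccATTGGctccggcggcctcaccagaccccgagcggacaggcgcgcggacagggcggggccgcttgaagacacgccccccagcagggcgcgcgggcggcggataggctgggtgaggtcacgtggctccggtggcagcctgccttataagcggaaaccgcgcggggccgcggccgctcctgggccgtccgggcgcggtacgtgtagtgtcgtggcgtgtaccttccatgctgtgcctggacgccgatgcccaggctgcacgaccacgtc
Sc5d, chr9:42264251-42264550, minus strand: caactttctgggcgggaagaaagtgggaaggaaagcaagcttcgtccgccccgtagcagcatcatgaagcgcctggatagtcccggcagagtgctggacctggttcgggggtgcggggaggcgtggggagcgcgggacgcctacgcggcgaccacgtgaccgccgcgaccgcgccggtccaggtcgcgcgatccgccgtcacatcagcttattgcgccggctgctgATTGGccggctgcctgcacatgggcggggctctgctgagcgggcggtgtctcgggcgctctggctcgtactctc
Cyp51, chr5:4104648-4104947, minus strand: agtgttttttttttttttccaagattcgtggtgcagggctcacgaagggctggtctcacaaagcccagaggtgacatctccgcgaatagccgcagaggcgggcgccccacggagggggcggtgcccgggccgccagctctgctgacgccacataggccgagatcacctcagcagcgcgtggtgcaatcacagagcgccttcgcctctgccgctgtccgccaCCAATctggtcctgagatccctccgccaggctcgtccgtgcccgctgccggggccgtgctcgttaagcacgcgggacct

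Among these 26 genes only Hmgcs1 held the element TCACNCCAC, searched on both strands, with the letters TCACCCCAC beginning 137 bases before its start. The same element was present in 1.24% of the 32851 windows of the whole table. CCAAT was present in 22 of the 35 windows (62.9%) and in 21 of the 26 genes, against 37.4% of all windows. The Hmgcs1 window held 4 matches to CCAAT, that of Msmo1 3, and those of Insig1, Sc5d and Cyp51 1 each. Of other genes correlated with Hmgcs1, Acat2 held 0, Lss and Soat1 1 each, Mvd 2, Hsd17b7 3 and Nsdhl 4. The 3 windows of Dhcr7, also correlated, held 0, 0 and 2. Of genes for which no such correlation was found, Mvk held 5, Idi1 2 and Abca1 0. Whether these matches bear on the correlations was not tested. GGGCGG, the core of the GC box bound by Sp1, was present in 27 of the 35 windows (77.1%), against 35.7% of all windows. TGACGTCA, the full cyclic AMP element, was present in none of the 35 and in 1.79% of all, and its core TGACG in 11 of the 35 (31.4%) and 20.8% of all. These are letter matches in a fixed window and not binding sites, and the windows of 1 gene can overlap.

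The level of these genes spanned a wide range, here in RPKM (reads scaled to transcript length and to the size of the library), which allows genes to be compared. Fdft1, squalene synthase, was the highest with a mean of 129.5 RPKM over the 18 libraries, followed by Fdps (62.65), the squalene epoxidase Sqle (43.45), the lanosterol demethylase Cyp51 (29.71), Hmgcs1 (29.05) and the LXR beta receptor Nr1h2 (21.31). These 6 genes had means of 20 RPKM or more and 9 had means under 5. Neighbours in the pathway differed in level: the mevalonate decarboxylase Mvd had a mean of 2.338 RPKM and the lanosterol synthase Lss 3.264, while Fdft1 and Sqle lie between them in the pathway. The lowest was the efflux pump Abcg1, at 0.17 to 0.64 RPKM. It did not reach 1 RPKM in any library and was not tested, so 31 of the 32 genes entered the tests below. Msmo1, the C4-methylsterol oxidase, had a mean of 16.75 RPKM, Idi1 (isopentenyl diphosphate isomerase) 15.59, Nsdhl 13.7, Dhcr7 9.358, Sc5d (lathosterol oxidase) 6.581 and Insig1 5.914. The means of the other enzymes were 9.03 RPKM for Pmvk, 7.721 for Acat2, 7.168 for the sterol isomerase Ebp, 6.964 for Lbr, 6.167 for the mevalonate kinase Mvk, 3.802 for Tm7sf2 and 1.298 for Hsd17b7. Scap was at 5.957, Nr1h3 at 5.846, Abca1 at 4.866 and Soat1 at 8.677. Insig2 (17.08) stood above Insig1, and Srebf2 (7.314) above Srebf1 (2.97). The sterol carrier Npc2 had a mean of 13.25, its lysosomal partner Npc1 1.648, and the cytosolic sterol transporter Stard4 2.225. Within groups the spread was smallest for Fdft1 (mean coefficient of variation 2.54%) and Sqle (4.04%), and among the tested genes it was widest for Idi1 (22.6%), Abca1 (21.1%), the sterol reductase Hsd17b7 (20.5%) and Npc2 (19.9%).

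**Figure D1:**
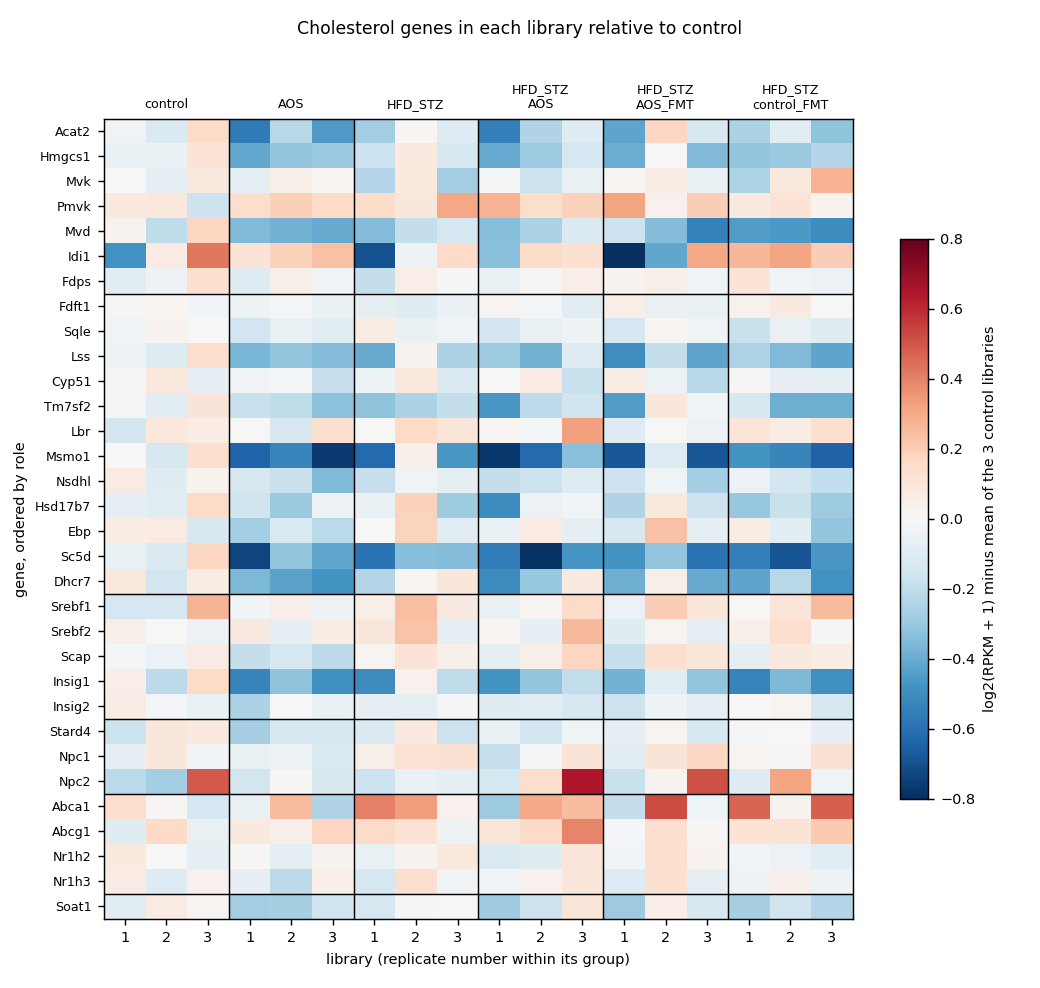
Each cell is the log2(RPKM + 1) of 1 gene in 1 library minus the mean of that gene over the 3 control libraries, with genes in rows by role and the 18 libraries in columns by group. Red is above control and blue below, and the colour scale is capped at both ends. Msmo1, Sc5d, Insig1, Hmgcs1, Mvd and Lss are blue in all 3 AOS libraries, Fdft1 and Fdps stay pale throughout, and Npc2 is red in single libraries of several groups.

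The libraries were similar in depth. The step between low RPKM values put it at 13100000 to 13400000 reads each, and 13022 to 13490 genes reached 1 RPKM. At this depth, taking each gene's longest GENCODE transcript, the mean level of Hmgcs1 was worth about 1328 reads, that of Sc5d about 416, that of Hsd17b7 about 79 and that of Mvd about 57, so counting noise is larger for the last of these. Germ cell markers were abundant in all libraries, and each of the testis cell marker genes was detected in at least 1 library. In 4 libraries (control replicate 3, HFD_STZ_AOS replicate 3, HFD_STZ_AOS_FMT replicate 3 and HFD_STZ_control_FMT replicate 2) the epididymal gene Crisp1 was at 116.64 to 164.71 RPKM, against 0.05 to 23.11 in the other 14. The counts of members in each comparison are given with and without these 4 libraries, as are some of the pooled correlations with Hmgcs1.

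Control testes held the highest group mean for 16 of the 32 genes, including 12 of the 19 enzymes, and AOS testes the lowest for 14, including 7 of the 19 enzymes. AOS was the highest group for 0 of the 32. The shares of all genes with these orders were not counted. The comparison of AOS with control asks what AOS does in otherwise untreated mice. By estimate 27 of the 31 tested genes were lower in AOS, with a median difference of -0.10 on the log2(RPKM + 1) scale, while 59.8% of all 13874 tested genes were lower, with a median of -0.03. Median ratio scaling divided each library by its median ratio to the geometric mean of all libraries. With it, 22 of the 31 were lower against 51.7% of all genes. Without the 4 libraries high in Crisp1, 24 were lower against 57.9%. In whole tissue, fewer cells of a type and less RNA per cell cannot be told apart.

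Msmo1, which removes the methyl groups at C4 of the sterol ring, differed the most in size. It was at 22.46, 20.57 and 24.72 RPKM in the 3 control libraries and at 14.08, 15.34 and 12.82 in the 3 AOS libraries. The groups did not overlap, and the difference was -0.64 ± 0.17 (log2, SE; limma adjusted p = 0.171). Sc5d, which sets the C5 double bond late in the pathway, was at 8.64, 8.32 and 10.25 RPKM in control and at 5.02, 7.05 and 6.52 in AOS. These groups did not overlap either, with a difference of -0.49 ± 0.12 and the smallest limma adjusted p among the genes in this comparison, 0.161. Hmgcs1, which condenses acetyl-CoA units at the entry to the pathway, was at 32.16, 32.11 and 36.06 RPKM in control and at 24.94, 26.70 and 27.02 in AOS. All AOS values lay below all control values, with a difference of -0.34 ± 0.09 (limma adjusted p = 0.185).

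Mvd, the last of the mevalonate enzymes, was at 3.09, 2.49 and 3.53 RPKM in control and at 2.14, 2.09 and 2.03 in AOS, a difference of -0.38 ± 0.10 (limma adjusted p = 0.181). The AOS values were close to each other and the control values were spread. Insig1, which retains Scap and is itself induced by SREBP, was at 7.65, 6.22 and 8.31 RPKM in control and at 4.78, 5.68 and 4.93 in AOS, a difference of -0.45 ± 0.13 (limma adjusted p = 0.186). Lss was at 3.91, 3.71 and 4.56 RPKM in control and at 2.92, 3.05 and 2.97 in AOS, a difference of -0.34 ± 0.11 (limma adjusted p = 0.237). For both genes the groups did not overlap. Dhcr7, the final reductase, was at 11.66, 9.81 and 11.47 RPKM in control and at 8.30, 7.87 and 7.58 in AOS, again without overlap (-0.42 ± 0.14, limma adjusted p = 0.244). Scap was at 5.88, 5.75 and 6.28 RPKM in control and at 5.11, 5.38 and 5.02 in AOS (-0.18 ± 0.08, limma adjusted p = 0.359).

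None of these differences passed the threshold. With limma, 0 of the 31 genes had an adjusted p under 0.05 in AOS against control, where 0% of all genes did. An unadjusted p under 0.05 was reached by 11 of the 31, all lower in AOS, against 8.4% of all genes that were lower at that level. Without the 4 libraries high in Crisp1 it was reached by 8, all lower, against 6.93% of all genes. The other members of the 11 were Acat2 (cytosolic thiolase, -0.42 ± 0.14), Nsdhl (a C4 decarboxylase that acts after Msmo1, -0.22 ± 0.07) and Soat1 (which esterifies cholesterol for storage, -0.23 ± 0.09). Of the 31 genes, 13 were lower in AOS with no overlap between groups, against 14.8% of all genes. Pmvk (phosphomevalonate kinase) was the only gene of the 31 that was higher without overlap, against 7.76% of all genes, at 8.62, 8.68 and 7.14 RPKM in control and 9.07, 9.40 and 9.20 in AOS.

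By role, 5 of the 7 mevalonate genes, 11 of the 12 squalene and sterol genes and 4 of the 5 SREBP genes were lower in AOS by estimate, with medians of -0.03, -0.21 and -0.10. The high-level genes of the pathway differed little: Fdft1 was at 131.5 ± 1.882 RPKM in control and 128.2 ± 1.593 in AOS (SD, n = 3), Fdps at 63.02 ± 5.263 and 61.73 ± 3.253, and Cyp51 at 30.56 ± 1.64 and 29.02 ± 1.929. Srebf2, which encodes the main activator of these genes, was at 7.13 ± 0.2706 RPKM in control and 7.257 ± 0.4488 in AOS, and Srebf1 at 2.833 ± 0.6466 and 2.793 ± 0.1286. The receptors that sense oxysterols were at 21.4 ± 1.195 and 21.24 ± 0.8127 RPKM (Nr1h2) and at 5.907 ± 0.4196 and 5.573 ± 0.5952 (Nr1h3, LXR alpha), and their target Abca1, the main cholesterol efflux pump, at 4.313 ± 0.5052 and 4.297 ± 0.9274. Npc1 was at 1.613 ± 0.1498 and 1.487 ± 0.05859, and Stard4 at 2.387 ± 0.3355 and 1.987 ± 0.1537.

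**Figure D2:**
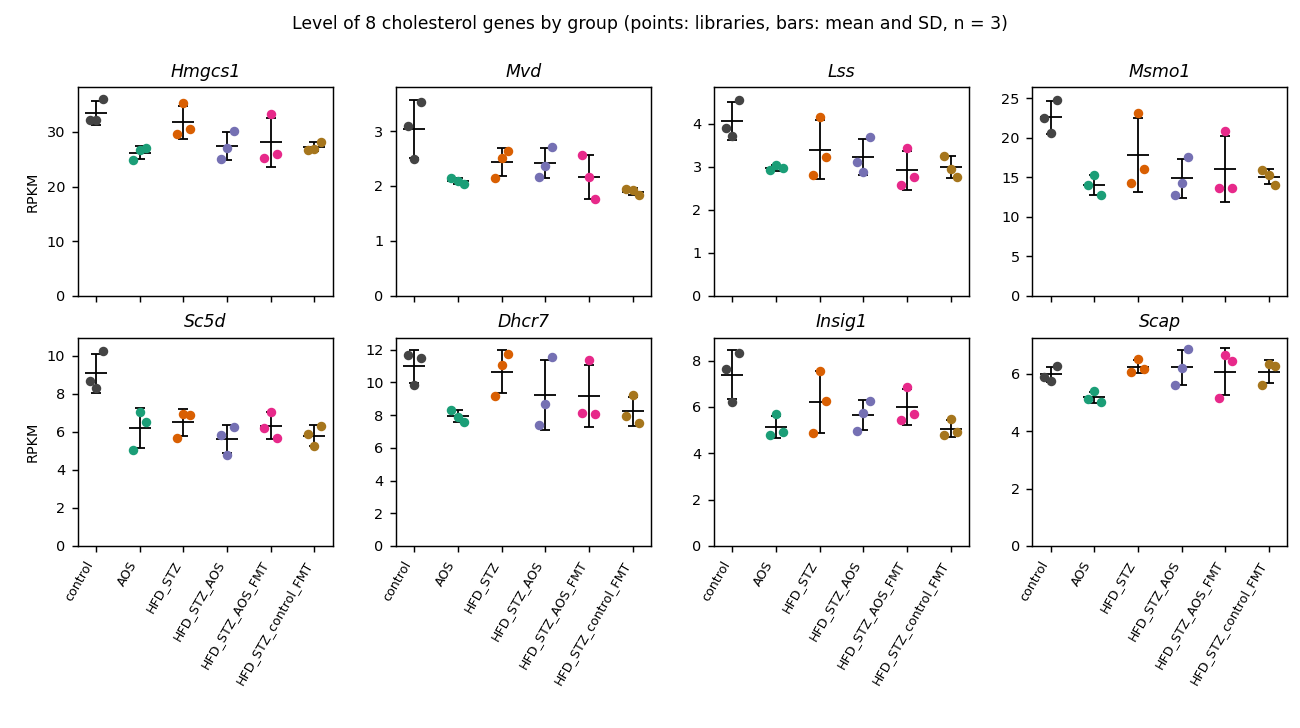
Level in RPKM of 8 genes in the 6 groups, with each axis starting at 0. Points are libraries and bars are the mean and SD of 3. For all 8 genes the AOS points lie below the control points, and Sc5d is the only gene of the 8 whose control points lie above all other points.

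Markers of several cell types also differed by estimate in this comparison, but 0 were called (smallest limma adjusted p = 0.161). Of all genes, 13.9% had an unadjusted p under 0.05 in either direction and 8.4% were lower at that level. All 8 Leydig cell markers were lower in AOS by estimate (median -0.32, 3 with an unadjusted p under 0.05), and their summed level was 2592 to 3534 RPKM in AOS against 3542 to 4057 in control. All 6 markers of elongating spermatids, which pack their DNA with protamines, were higher (median 0.29, 5 with an unadjusted p under 0.05), and their sum was 53620 to 55390 RPKM in AOS against 42520 to 48580 in control. Of the 6 spermatocyte markers 5 were lower (median -0.12, 3 with an unadjusted p under 0.05), with sums of 511.3 to 552.0 RPKM in AOS against 557.5 to 587.0 in control. The 7 tested macrophage markers and the 4 endothelial markers were also lower by estimate (medians -0.12 and -0.15), with 0 at an unadjusted p under 0.05. The Sertoli markers (4 lower and 6 higher) and the round spermatid markers (3 lower and 3 higher) were split. None of the markers in these lists was at 0 in all libraries. Their part in the lower values of the sterol genes was not tested.

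The same compound was given on top of the diet and STZ. In HFD_STZ_AOS against HFD_STZ, 23 of the 31 genes were lower by estimate (median -0.05), against 52.3% of all genes (median -0.01). With limma 0 of the 31 passed the adjusted threshold, where 0% of all genes did. Hmgcs1 was the only one with an unadjusted p under 0.05, against 6.26% of all genes that were lower at that level. It was at 29.54, 35.26 and 30.48 RPKM in HFD_STZ and at 25.06, 27.07 and 30.24 in HFD_STZ_AOS. The groups overlapped, and the difference was -0.20 ± 0.09 (limma adjusted p = 0.396). It ranged from -0.27 to -0.13 with 1 library left out, at -0.13 without HFD_STZ replicate 2, and its unadjusted p was under 0.05 in 12 of 26 other settings. Msmo1 was at 14.26, 23.16 and 16.03 RPKM in HFD_STZ and at 12.80, 14.27 and 17.62 in HFD_STZ_AOS. The groups overlapped, and HFD_STZ replicate 2 was the highest of the 6 libraries. Insig2 was the only gene lower without overlap (16.57 ± 0.2845 against 17.25 ± 0.4565 RPKM, SD, n = 3), against 9.8% of all genes. The number lower by estimate ranged from 16, without HFD_STZ replicate 2, to 27, without HFD_STZ replicate 1. When the 4 libraries high in Crisp1 were left out, 23 were lower (56.7% of all genes), and 2 reached an unadjusted p under 0.05, both lower, against 7.07%. Leydig markers were lower for 7 of 8 (median -0.19, 1 with an unadjusted p under 0.05), with sums of 3580 to 4197 RPKM against 3659 to 4536, and elongating spermatid markers were higher for 6 of 6 (median 0.23, 5 at that level), with sums of 50030 to 57720 against 44190 to 50100. All 6 spermatocyte markers were lower (median -0.12, 3 at that level), with sums of 484.2 to 545.5 RPKM against 522.5 to 561.6. The part of these cells in the values of the sterol genes was not tested.

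Taking the groups with and without AOS together, as the mean of AOS and HFD_STZ_AOS minus the mean of control and HFD_STZ, gave 2 calls among the 31 genes, both lower with AOS. In this contrast 1.05% of all genes were called lower and 1.3% higher, 2.34% in all. Hmgcs1 was at 26.84 ± 1.921 RPKM in the AOS libraries and 32.6 ± 2.582 in the others (SD, n = 6 each), a difference of -0.27 ± 0.07 (limma adjusted p = 0.0469). Sc5d was at 5.907 ± 0.8758 against 7.783 ± 1.619 RPKM, a difference of -0.34 ± 0.08 (limma adjusted p = 0.0495). For both genes the ranges overlapped: 24.94 to 30.24 against 29.54 to 36.06 RPKM for Hmgcs1, and 4.79 to 7.05 against 5.67 to 10.25 for Sc5d. The transplant groups are not in this contrast. Hmgcs1 was at 27.28 ± 0.8127 RPKM in HFD_STZ_control_FMT, which had no AOS by its label, and 28.12 ± 4.47 in HFD_STZ_AOS_FMT. Sc5d was at 5.797 ± 0.5299 and 6.31 ± 0.6994. These means lay nearer to those of the AOS libraries than to the others. In HFD_STZ_AOS against HFD_STZ alone, Sc5d differed by -0.18 ± 0.12 (limma adjusted p = 0.552). Msmo1 missed the threshold at -0.44 ± 0.12 (limma adjusted p = 0.0601), as did Dhcr7 (-0.31 ± 0.10, 0.0962), Insig1 (-0.28 ± 0.09, 0.103) and Acat2 (-0.30 ± 0.10, 0.116). An unadjusted p under 0.05 was reached by 11 of the 31, all lower, against 12.1% of all genes that were lower at that level. Without the 4 libraries high in Crisp1 it was again reached by 11, all lower, against 12.1% of all genes. By estimate 23 of the 31 were lower (median -0.09), against 57% of all genes (median -0.02), and 25 without the 4 libraries, against 58.9%. All 8 Leydig markers were lower in this contrast too (median -0.25, 0 called), 5 of the 6 spermatocyte markers were lower (median -0.09, 2 called), and all 6 elongating spermatid markers were higher (median 0.24, 3 called). Their part in the result was not tested.

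Both calls lay at the edge of the threshold. Hmgcs1 passed in 9 of 26 other settings and Sc5d in 6 of 26, and the sign was the same in each. The call of Hmgcs1 was lost without any single library of control (limma adjusted p = 0.0672, 0.0988 and 0.0898 without replicates 1, 2 and 3), AOS (0.116, 0.0609 and 0.0829), HFD_STZ (0.0822, 0.117 and 0.0506) or HFD_STZ_control_FMT (0.0554, 0.0551 and 0.0513), and without HFD_STZ_AOS replicate 1 (0.109) or replicate 2 (0.0708). The call of Sc5d was lost without any single library of control (limma adjusted p = 0.0702, 0.0919 and 0.0946), HFD_STZ (0.0787, 0.121 and 0.0746) or HFD_STZ_control_FMT (0.0591, 0.0543 and 0.0518), and without AOS replicate 1 (0.118) or 3 (0.0829), HFD_STZ_AOS replicate 1 (0.0907) or 2 (0.0868), or HFD_STZ_AOS_FMT replicate 2 (0.0518). Msmo1 passed only without HFD_STZ_AOS replicate 3 (limma adjusted p = 0.0484) or HFD_STZ_AOS_FMT replicate 1 (0.0454) or 2 (0.044), of these 26 settings. Without the 4 libraries high in Crisp1 the values were 0.0763 for Hmgcs1 and 0.0827 for Sc5d. The differences themselves ranged from -0.31 to -0.23 for Hmgcs1 and from -0.38 to -0.27 for Sc5d when 1 library was left out.

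**Figure D3:**
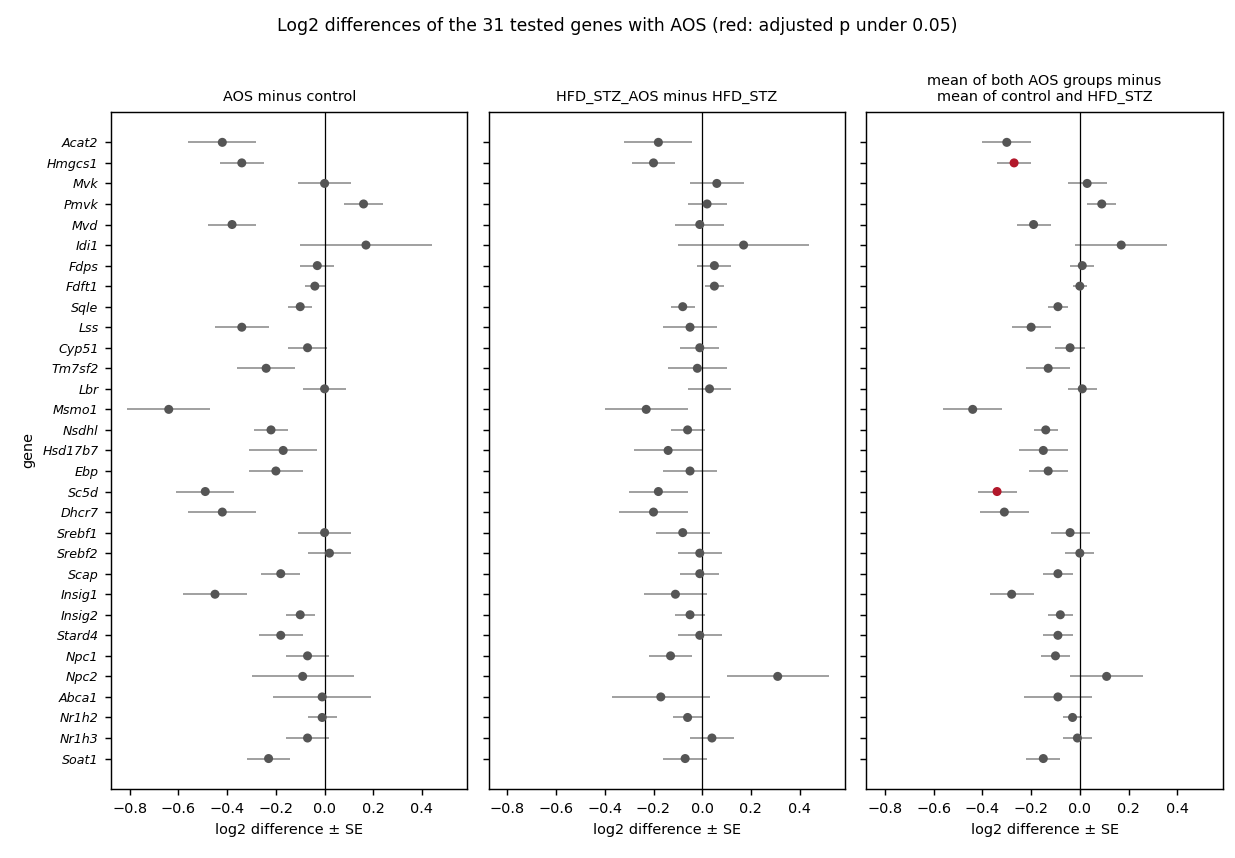
Difference in log2(RPKM + 1) with its SE (limma) for the 31 tested genes, in AOS minus control, HFD_STZ_AOS minus HFD_STZ, and the mean of both contrasts. Red points have an adjusted p under 0.05, which in these panels are Hmgcs1 (-0.27) and Sc5d (-0.34) in the panel of the mean. Most points lie left of 0 in the first panel and closer to 0 in the middle panel.

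Whether AOS acted differently with and without the diet and STZ was tested as an interaction, the AOS difference in HFD_STZ mice minus that in untreated mice. By estimate 24 of the 31 genes had a positive interaction (median 0.12), including 12 of the 12 squalene and sterol genes, against 56.4% of all genes (median 0.02). With limma 0 of the 31 were called (0% of all genes), and Mvd was the only one with an unadjusted p under 0.05 (0.37 ± 0.15, limma adjusted p = 0.999), against 2.88% of all genes that were higher at that level and 4.61% in either direction. Mvd was at 2.15, 2.51 and 2.64 RPKM in HFD_STZ and at 2.17, 2.37 and 2.71 in HFD_STZ_AOS, which overlap fully. Without the 4 libraries high in Crisp1, 19 of the 31 were positive and 12 negative, where 49.1% of all genes were negative. In that fit 0 of the 31 had an unadjusted p under 0.05, and the interaction of Mvd was 0.22. For none of the 31 genes was a difference between the AOS contrasts detectable in these libraries.

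HFD_STZ against control asks what the diet and STZ did by themselves. This comparison uses the same control libraries as AOS against control, so the values of the 2 contrasts are not independent. By estimate 22 of the 31 genes were lower (median -0.05), while 40.5% of all genes were lower (median 0.02). With limma 0 of the 31 were called, where 0% of all genes were. Sc5d was at 5.67, 6.92 and 6.90 RPKM in HFD_STZ, below the lowest control value of 8.32, and the difference was -0.43 ± 0.12 (limma adjusted p = 0.309). Mvd differed by -0.23 ± 0.10 (limma adjusted p = 0.587) with overlapping groups. Its difference was -0.14 without control replicate 3, also -0.14 without the 4 libraries high in Crisp1, and its unadjusted p was under 0.05 in 10 of 26 other settings. These were the 2 genes lower at an unadjusted p under 0.05, against 2.13% of all genes. Pmvk was the 1 gene higher at that level, against 6.16% of all genes, at 9.10, 8.69 and 10.32 RPKM in HFD_STZ (0.18 ± 0.08, limma adjusted p = 0.576). Without control replicate 3, the lowest Pmvk library, its difference was 0.10. With median ratio scaling, 23 of the 31 genes were lower, where 51.1% of all were. Then 6 reached an unadjusted p under 0.05, all lower, against 4.14% of all genes. Without that scaling, and in either direction, the number at that level was 3 with all libraries. With 1 library left out it ranged from 2 to 6, and it was 6 without HFD_STZ replicate 2 or control replicate 2. When the libraries high in Crisp1 were left out, 19 were lower against 40.2% of all genes. At an unadjusted p under 0.05 there were then 1 lower, against 2.58% of all genes, and 1 higher. All 10 Sertoli cell markers were higher in HFD_STZ by estimate (median 0.10, 2 with an unadjusted p under 0.05). Their sums were 222.7 to 234.6 RPKM, against 205.6 to 219.3 in control. Of the 6 spermatocyte markers 5 were lower (median -0.08, 0 at that level). Of the 6 round spermatid markers 5 were also lower (median -0.05, 1 at that level). The part of these cells in the values of the sterol genes was not tested.

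Groups did not overlap for Sc5d, Tm7sf2 (a sterol C14 reductase, 3.587 ± 0.205 RPKM in HFD_STZ against 4.487 ± 0.3722, SD, n = 3) and Fdft1 (124.7 ± 1.907 against 131.5 ± 1.882), all lower in HFD_STZ, against 4.53% of all genes, and for Pmvk, higher, against 11.7% of all genes. Hmgcs1, Msmo1, Insig1, Dhcr7 and Lss overlapped with control, and in each of these genes HFD_STZ replicate 1 was the lowest of its group: Insig1, for example, was at 4.89, 7.55 and 6.24 RPKM, Dhcr7 at 9.17, 11.06 and 11.73 and Lss at 2.81, 4.15 and 3.24. Without HFD_STZ replicate 1, 18 of the 31 genes were lower, and the share of all genes in that fit was not counted. Taking both groups with the diet and STZ against control and AOS, 16 of the 31 were lower (median -0.00), against 35.3% of all genes (median 0.03), and 0 were called, against 2.85% of all genes. Sc5d (6.057 ± 0.8124 against 7.633 ± 1.83 RPKM, SD, n = 6, -0.27 ± 0.08, limma adjusted p = 0.0931) was lower and Scap, the SREBP escort, was higher (6.23 ± 0.4183 against 5.57 ± 0.4864 RPKM, 0.14 ± 0.06, limma adjusted p = 0.202) at an unadjusted p under 0.05, against 4.42% and 14.3% of all genes in those directions. With median ratio scaling, 20 of the 31 were lower against 50.1% of all genes. The fit without the 4 libraries high in Crisp1 gave 17 lower against 37%. In it 1 gene, lower, had an unadjusted p under 0.05, against 3.46% of all genes. Of the 10 Sertoli markers 8 were higher in this contrast (median 0.11, 4 with an unadjusted p under 0.05, 0 called). Of the 6 spermatocyte markers 5 were lower (median -0.08, 1 at that level, 0 called). Of the 6 round spermatid markers 4 were lower (median -0.01), and 1 was called, lower (limma adjusted p = 0.0478). The part of these cells was not tested.

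The transplant groups were compared with HFD_STZ, whose libraries both contrasts share. In HFD_STZ_AOS_FMT, 23 of the 31 genes were lower than in HFD_STZ by estimate (median -0.04), against 56.3% of all genes (median -0.02). With limma 0 of the 31 were called (0.0144% of all genes). At an unadjusted p under 0.05 there were also 0, against 14.5% of all genes. The smallest adjusted p was 0.398, for Hmgcs1, at 25.17, 33.26 and 25.92 RPKM. Replicate 2 of this group was its highest library for Hmgcs1, for Msmo1 (13.61, 20.87 and 13.62 RPKM), for Dhcr7 (8.10, 11.34 and 8.04) and for Insig1 (5.42, 6.88 and 5.71). Leaving out 1 library moved the count of lower genes between 14, without HFD_STZ_AOS_FMT replicate 1, and 27, without HFD_STZ replicate 1. In the absence of the 4 libraries high in Crisp1, 20 were lower against 55.5% of all genes, with 0 at an unadjusted p under 0.05. All 6 elongating spermatid markers were higher (median 0.16, 3 at that level), with sums of 48690 to 58560 RPKM against 44190 to 50100. Adipocyte markers were higher by estimate than in HFD_STZ for 5 of the 5 tested, here (median 0.81, 4 with an unadjusted p under 0.05) and in HFD_STZ_control_FMT (median 0.87, likewise 4). Their sum was 52.32 to 145.5 RPKM in HFD_STZ_AOS_FMT and 42.96 to 149.7 in HFD_STZ_control_FMT, against 14.52 to 26.41 in HFD_STZ, and the part of these markers in the sterol genes was not tested.

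In HFD_STZ_control_FMT, 22 of the 31 genes were lower than in HFD_STZ (median -0.04), against 58.9% of all genes (median -0.03), and 0 were called (0.00721% of all genes). An unadjusted p under 0.05 was reached by 3 genes that were lower, against 10.1% of all genes, and by 1 that was higher, against 6.06%. Dhcr7 was at 7.91, 9.23 and 7.53 RPKM (-0.34 ± 0.14, limma adjusted p = 0.256). Mvd was at 1.94, 1.92 and 1.83 RPKM, below each HFD_STZ library (-0.24 ± 0.10, limma adjusted p = 0.264), and Hmgcs1 at 26.67, 26.96 and 28.20 RPKM, also below each (-0.21 ± 0.09, limma adjusted p = 0.289). Fdft1 was the gene that was higher, at 134.39, 137.99 and 131.00 RPKM against 125.02, 122.69 and 126.47 in HFD_STZ (0.11 ± 0.04, limma adjusted p = 0.203). With median ratio scaling, 18 of the 31 genes were lower, against 49.7% of all. After removal of the trend on transcript length 17 were, against 50.3%. Without the 4 libraries high in Crisp1, 22 were lower against 58.9%, and an unadjusted p under 0.05 was reached by 2 that were lower, against 8.33%, and by 1 that was higher. Without overlap, 4 genes were lower (Hmgcs1, Mvd, Sqle and Soat1), against 16% of all genes, and 2 were higher (Idi1 and Fdft1), against 8%. Leydig markers were lower for 6 of 8 (median -0.27), with sums of 2791 to 4084 RPKM against 3659 to 4536 in HFD_STZ. The only gene called in this comparison was 1 of them, Hsd3b6, lower (limma adjusted p = 0.00114), which has a close paralogue, Hsd3b1, so reads may have been split between them. All 6 elongating spermatid markers were higher (median 0.18, 3 with an unadjusted p under 0.05), with sums of 48850 to 54560 RPKM against 44190 to 50100. The part of these cells in the values of the sterol genes was not tested.

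The transplants were also compared with each other. HFD_STZ_AOS_FMT was lower than HFD_STZ_control_FMT for 14 of the 31 genes (median 0.01), against 46.1% of all genes (median 0.01), and 0 were called (0.0216% of all genes). Idi1 was the only gene with an unadjusted p under 0.05, against 1.66% of all genes that were lower at that level and 4.58% in either direction. It was at 7.91, 11.21 and 19.21 RPKM in HFD_STZ_AOS_FMT and at 18.59, 19.32 and 17.73 in HFD_STZ_control_FMT. The groups overlapped, and the difference was -0.59 ± 0.27 (limma adjusted p = 0.999). It was -0.31 without HFD_STZ_AOS_FMT replicate 1 and -0.91 without replicate 3, and its unadjusted p was under 0.05 in 12 of 26 other settings. Idi1 was also spread in control (10.68, 16.04 and 20.82 RPKM) and HFD_STZ (9.05, 14.88 and 17.16), while it was even in AOS (16.58, 17.54 and 18.17). The sterol reductase Lbr was lower without overlap (6.457 ± 0.2458 against 7.267 ± 0.205 RPKM, SD, n = 3), against 3.27% of all genes, and Nr1h2 was higher without overlap (22.11 ± 1.239 against 20.58 ± 0.4477), against 5.15%. With the 4 libraries high in Crisp1 left out, 11 of the 31 were lower against 46% of all genes, and 1 reached an unadjusted p under 0.05, again lower, against 1.32%. Leydig markers were higher in HFD_STZ_AOS_FMT for 6 of 8 (median 0.29, 3 with an unadjusted p under 0.05, smallest limma adjusted p = 0.0973), with sums of 3673 to 5376 RPKM against 2791 to 4084. Sertoli markers were higher for 9 of 10, with sums of 213.9 to 245.6 RPKM against 205.6 to 226.6. Their part in these values was not tested.

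A test of any difference among the 6 groups called 0 of the 31 genes (0.0432% of all genes). The smallest values belonged to Sc5d (F = 6.67, limma adjusted p = 0.0802), Mvd (F = 4.92, 0.114), Hmgcs1 (F = 4.05, 0.147), Msmo1 (F = 3.94, 0.154), Insig1 (F = 3.52, 0.176), Lss (F = 3.07, 0.214) and Dhcr7 (F = 2.94, 0.228). These were the 7 genes with an unadjusted p under 0.05, against 21.1% of all genes. In each of them control had the highest group mean, and the share of all genes with control highest was not counted. Sc5d was the clearest case: its control libraries, from 8.32 RPKM, lay above all 15 others, which reached 7.05 at most. With control replicate 3 left out, 2 of the 31 had an unadjusted p under 0.05, and without the 4 libraries high in Crisp1 5 did. The shares of all genes in these fits were not counted.

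Some of the sterol genes were correlated with Hmgcs1 from library to library. Each gene was correlated with Hmgcs1 across the 18 libraries on the log2(RPKM + 1) scale, and Hmgcs1 was chosen for this after its values were seen. Of the 30 other tested genes, 11 had a pooled Pearson r with an adjusted p under 0.05 (permutation test, two-sided, adjusted over all 13873 genes), all positive, against 8.93% of all genes, or 6.54% counting positive r only. Msmo1 was the closest of these 30 (r = 0.92, permutation p = 1e-05, the smallest that 100000 permutations can give, adjusted 0.00694). Its Spearman's rho was 0.83 (permutation p = 6e-05). Without the 2 libraries farthest from the median of Hmgcs1 its r was 0.86. Insig1 followed with r = 0.85 (permutation p = 3e-05, adjusted 0.00878), rho 0.78 and 0.75 without those 2 libraries. The r of Lss was 0.85, that of Dhcr7 0.84, those of Acat2 and Soat1 0.83, those of Hsd17b7 and Sc5d 0.75, those of Nsdhl and Sqle 0.69 and that of Mvd 0.65. Over the 14 libraries left without those high in Crisp1, the r of Msmo1 was 0.89, that of Insig1 0.83, that of Lss 0.79, that of Sc5d 0.65 and that of Mvd 0.44, and the median over the 30 genes was 0.54, against 0.51 over all 18.

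Part of a pooled correlation can come from differences between the group means. With each value taken as its deviation from its group mean, and permuted within groups (46656 permutations, the exact set), 0 of the 13873 genes had an adjusted p under 0.05, the smallest being 0.149. At an unadjusted p under 0.05 there were 17 of the 30 genes, 15 with a positive r and 2 with a negative r (Fdft1 and Pmvk), against 11% of all genes in either direction. The median within-group r was 0.55 for the 30 genes and 0.14 for all genes. Msmo1 kept r = 0.87 (exact permutation p = 0.00622, adjusted 0.331), Acat2 0.82, Lss 0.81 and Insig1 0.78, and Srebf1, whose pooled r was 0.45, had 0.77 within groups. Srebf2 had r = 0.27 pooled and 0.46 within groups. Among all 13873 genes ranked by within-group r, Msmo1 was at 15, Acat2 at 50, Lss at 68, Insig1 at 124, Sc5d at 926 and Mvd at 4462.

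Not all enzymes followed Hmgcs1. Cyp51, which acts upstream of Msmo1 in the pathway, had r = 0.11 pooled and -0.13 within groups, and Idi1 had 0.01 and 0.30. Pmvk ran the other way (r = -0.61, permutation p = 0.00572, adjusted 0.0573, -0.43 without the 2 outermost libraries, -0.74 within groups). The r of Fdft1 was also negative, at -0.40 pooled (permutation p = 0.101, adjusted 0.287) and -0.31 without those 2 libraries. Within groups it was -0.68 (exact permutation p = 0.0435, adjusted 0.438). Without the libraries high in Crisp1 the r was -0.49 for Pmvk, -0.51 for Fdft1 and 0.11 for Cyp51. Fdft1 is one of the genes for which reads cannot be assigned with certainty, since 18.3% of its exon bases overlap Ctsb on the opposite strand and no source used here says whether strand was kept. Scap (13.2%, with 5830462I19Rik) and Hmgcs1 (12.1%, with Gm48342) also share exon bases with a gene on the opposite strand. For Fdps (26.7%, with Gm43738) and Tm7sf2 (12.1%, with Vps51) the overlapping gene is on the same strand, so reads there could not be assigned by strand either. Acat2 has a close paralogue, Acat3, and reads may have been split between them.

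**Figure D4:**
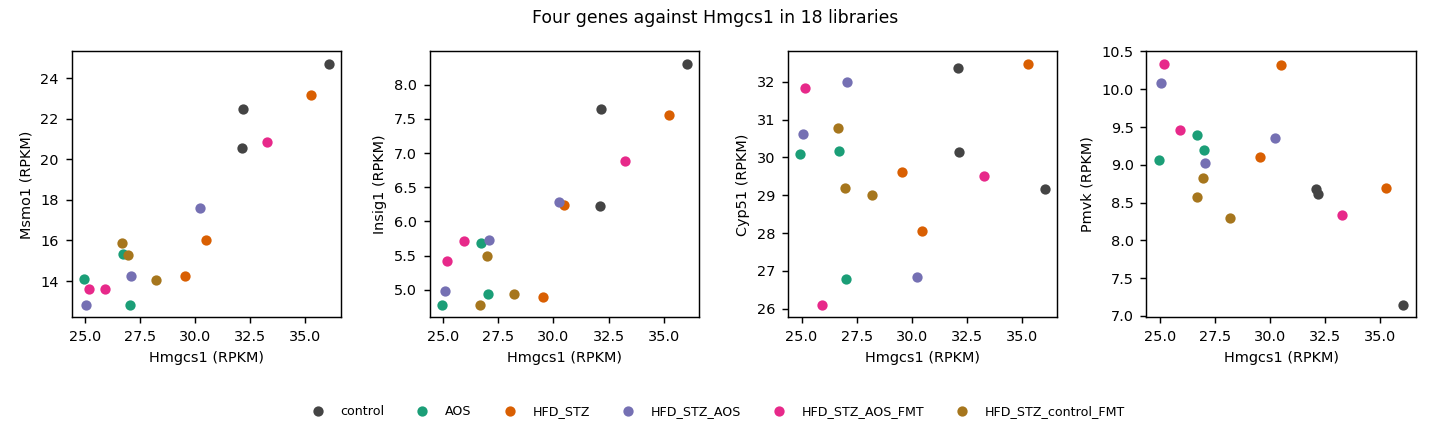
Level of Msmo1, Insig1, Cyp51 and Pmvk against that of Hmgcs1 (RPKM on all axes, which do not start at 0), with 1 point per library coloured by group. The points of Msmo1 (r = 0.92) and Insig1 (r = 0.85) climb along the Hmgcs1 axis, those of Cyp51 (r = 0.11) are scattered and those of Pmvk (r = -0.61) slope down.

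Npc2, chosen here after its values were seen, was the only one of the 32 genes whose levels separated the 4 libraries high in Crisp1 from the rest. How many of all genes separated them was not counted. Npc2 binds cholesterol in the lysosome and is also known as a major secretory protein of the epididymis, the duct next to the testis. It was at 15.98 to 20.42 RPKM in those 4 libraries and at 10.32 to 14.08 in the other 14. Cd52, another epididymal gene, was at 80.99 to 139.53 RPKM in the 4 and at 1.11 to 20.25 in the rest. The wide spread of Npc2 in control (10.74, 10.32 and 18.18 RPKM), HFD_STZ_AOS (11.37, 14.08 and 20.42) and HFD_STZ_AOS_FMT (11.08, 12.92 and 18.44) follows those libraries, 1 of which is in each of these groups. In AOS and HFD_STZ, which hold none of them, Npc2 was at 11.33, 12.75 and 11.51 RPKM and at 11.15, 12.19 and 11.97. The part of epididymal tissue in the other 31 genes was not tested, and none of these had values in the 4 libraries that were all above or all below the other 14.

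**Figure D5:**
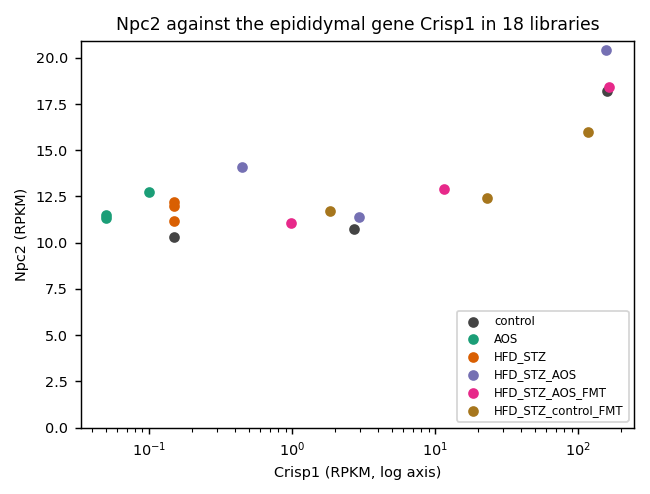
Level of Npc2 (RPKM, axis from 0) against Crisp1 (RPKM, log axis) in the 18 libraries, coloured by group. The 4 libraries with Crisp1 from 116.64 RPKM have Npc2 from 15.98, and the others have Npc2 up to 14.08.

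A second list of 32 genes of sterol transport, SREBP processing and sterol conversion was set beside these. Of them 23 could be tested, and limma called 0 in each comparison. In AOS against control 20 of the 23 were lower by estimate (median -0.07), against 59.8% of all genes, and 4 reached an unadjusted p under 0.05, all lower, against 8.4% of all genes: Rnf139 and Erlin2, which take part in sterol-regulated protein degradation (-0.11 ± 0.04 and -0.12 ± 0.05), Stard5, a sterol carrier (-0.29 ± 0.13), and Cyp27a1, the sterol 27-hydroxylase (-0.32 ± 0.14). In the mean AOS contrast 19 of 23 were lower (median -0.07), against 57% of all genes, and 7 reached an unadjusted p under 0.05, all lower, against 12.1%. The smallest limma adjusted p there was 0.0549, for Gramd1b, which moves cholesterol from the plasma membrane to the endoplasmic reticulum (-0.12 ± 0.03), followed by Lrp8, a lipoprotein receptor (-0.17 ± 0.05, limma adjusted p = 0.074). Scarb1, the HDL receptor that supplies cholesterol to Leydig cells, was the most abundant uptake gene named here, at 61.48 RPKM over all libraries. It was at 59.96 ± 8.616 RPKM in control, 56.87 ± 4.272 in AOS, 67.5 ± 5.12 in HFD_STZ and 67.7 ± 12.08 in HFD_STZ_AOS (SD, n = 3). Its difference between mice with and without the diet and STZ was 0.21 ± 0.08 (limma adjusted p = 0.191).

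The genes that the results turn on lie apart in the genome. In GRCm38 (mm10) with GENCODE vM21, Hmgcs1 spans chr13:119690379-119708260 on the plus strand, Sc5d chr9:42251595-42264256 on the minus strand, Msmo1 chr8:64718139-64733792 on the minus strand, Insig1 chr5:28071363-28078662 on the plus strand and Mvd chr8:122433601-122443422 on the minus strand. All are annotated as protein coding. Each value above is for a gene symbol, and the sources used here do not say over which exons or transcripts reads were counted.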

How the data were processed

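RNA of 18 mouse testis libraries was sequenced (6 groups of 3). The aligner was Bowtie 0.12.2 and the build mm10, per the submitters' processing notes. For the counting tool, annotation and strand setting, nothing is given in the sources used here. As deposited by the authors, the table has 20985 rows and was read here as RPKM from its values: library sums of 588080.85 to 646821.96 and steps that depend on gene length. The 6 rows of 3 repeated symbols were left out. In 26 rows the symbol had become a date.

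From these values, log2(RPKM + 1) was fitted with limma 3.58.1 (R 4.3.3; lmFit, eBayes with trend, 12 residual and 3.71 prior degrees of freedom), with 1 coefficient per group over all 18 libraries, for the 13874 genes that reached 1 RPKM in 3 or more libraries. P-values are two-sided and Benjamini-Hochberg adjusted over these genes, and a call is an adjusted p under 0.05. A difference on this scale understates the change of low genes. The fit was tested on simulated data.

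The members and lists were chosen with earlier results of these data known. Values in each library are given for the members with the smallest p among the 6 groups and in each comparison, at an unadjusted p under 0.05. Alternatives were a median ratio scaling, no filter, a pseudocount of 0.1, only the groups compared, a replicate block, robust eBayes, removal of the trend on transcript length, each library left out and, chosen after seeing the data, the fit and the correlations without the 4 libraries with Crisp1 above 50 RPKM. Correlations used numpy 2.4.6 in Python 3.11.15. Gene positions are from GENCODE vM21 and promoters from RefSeq.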

Additional observations from a re-analysis of the deposited data

How the results depend on the processing

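The sign of the difference was checked for up to 3 members per comparison, those with the smallest unadjusted p under 0.05. No alternative reversed it. Hmgcs1 and Sc5d kept theirs but often lost their call in the mean AOS contrast, where members called numbered 1 with median ratio scaling, 0 without the filter, 1 with a pseudocount of 0.1, 1 with only the groups compared, 0 with the length trend removed, 0 without the 4 libraries high in Crisp1, and 0 to 4 with 1 library left out. No other comparison called a member under any setting. Genes called over the table in that contrast (325, 145 lower and 180 higher) numbered 200 with median ratio scaling (61 lower and 139 higher), 142 without the filter, 565 with only the groups compared, 0 with the length trend removed, 76 without the 4 libraries, and 0 to 779 with 1 library left out (0 without control replicate 2). For the diet and STZ (396, 63 lower and 333 higher) they numbered 259 with scaling (107 lower and 152 higher), 205 without the filter, 133 with only the groups compared, 36 without the 4 libraries, and 110 to 695. For HFD_STZ_AOS against HFD_STZ (0) they were 1 without the filter, 2 without the 4 libraries, and 0 to 2. For HFD_STZ_AOS_FMT against HFD_STZ (2) they were 16 without the filter, 4 with a pseudocount of 0.1, 1 with only the groups compared, 5 with the length trend removed, and 2 to 7. For HFD_STZ_control_FMT against HFD_STZ (1) they were 4 without the filter, 0 with only the groups compared, and 1 to 14. For the transplants against each other (3) they were 11 without the filter, 6 with only the groups compared, and 2 to 5. Among the 6 groups (6) they were 18 without the filter, 11 with robust eBayes, and 3 to 157. With 1 library left out they were 0 to 3 for HFD_STZ and for AOS against control, and 0 to 0 for the interaction. The cause of these changes was not tested. Removing 1 library of a group leaves 2, and the fit then takes their spread from all groups. For the counts of members lower by estimate or at an unadjusted p under 0.05 in those fits, the share of all genes was not counted.

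Groups share replicate numbers in the labels. Deviations from group means of the 45 same-number pairs correlated at -0.246 to 0.411 (median 0.001, against -0.0145 for different numbers), 11 of the 45 were over 0.1, and 8 of 18 libraries correlated best with their own number, so the numbers were not taken to pair the libraries. With the replicate number as a block, genes called were 2 for HFD_STZ_control_FMT against HFD_STZ, 10 among the 6 groups and 418 in the mean AOS contrast, where Hmgcs1 and Sc5d were called (limma adjusted p = 0.0388 and 0.0468). The values are RPKM without counts, so no count model was fitted, and a difference in a gene as low as Mvd or Abcg1 may not be detectable at this depth.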
